A study of Homo sapiens with 10 samples.

Results

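The genes described here are 10 members of the bone morphogenetic protein (BMP) pathway, among 20327 genes measured in all. They are the ligands BMP2, BMP4 and BMP6, the transcriptional regulators ID1, ID2, ID3 and ID4, and the feedback and inhibitory genes SMAD6, GREM1 and BAMBI. The members were chosen by their place in the pathway, but also with values of both treatment contrasts already known. Their own values are therefore given as a description, and calls or p-values printed for them are not read as tests. All 10 were present in the tables, 9 had reads, and 5 (BMP4, ID1, ID3, GREM1 and BAMBI) had a mean of at least 1 RPKM in each experiment, the minimum for entering the statistical model. RPKM is the number of reads scaled to the length of the gene and to the reads of the library.

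RNA was sequenced from wild-type hTERT RPE-1 cells, a human retinal pigment epithelial line immortalised with telomerase reverse transcriptase. All cells had been held for 48 h in 0.1% FBS before treatment. In the 30 min experiment, 3 libraries of cells given DMSO for 30 min were compared with 3 of cells given 200 µM merbarone, a catalytic inhibitor of topoisomerase II, for 30 min. In the 2 h experiment, 2 libraries of untreated cells were compared with 2 of cells given 200 µM merbarone for 2 h. The controls of the 2 h experiment received no vehicle, so drug and vehicle cannot be told apart there. One line was used throughout, and the labels do not say whether replicates came from separate cultures, so p-values measure only the spread between these libraries, which may be technical.

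BMP ligands are secreted dimers that bind pairs of type I and type II serine/threonine kinase receptors. The receptors phosphorylate receptor-regulated SMAD proteins, which enter the nucleus with SMAD4 and raise transcription of target genes. The ID genes are among the best known of these targets: their proteins lack a DNA-binding basic region and hold E proteins such as TCF3 in inactive dimers. SMAD6 and BAMBI, an inhibitory SMAD and a pseudoreceptor, are targets that dampen the same pathway, and GREM1 is a secreted antagonist that binds BMP2 and BMP4. In the eye, BMP4 is expressed in the pigment epithelium and its precursors.

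Library totals ranged from 26633780 to 38225538 reads in the 30 min experiment and from 11956652 to 13691014 in the 2 h experiment. Of 11 pigment epithelial marker genes, 6 were below 0.1 RPKM in every library, with RPE65 at no more than 0.0656 RPKM and DCT at 0, whereas BEST1 (2.10 to 20.03 RPKM), PMEL (3.68 to 5.07) and OTX2 (2.35 to 4.61) were present. The line thus lacked part of the defining pigment epithelial markers. Overlap of marker genes with other genes was not examined, so marker values may include reads of other genes. Of the mesenchymal markers, VIM was at 560 to 1105 RPKM, THY1 at 55.3 to 80.9, PDGFRB at 3.27 to 6.59 and COL1A1 at 1.48 to 5.92. COL1A2, of the same list, was at no more than 0.00684 RPKM. The blood marker PTPRC was at no more than 0.00758 and the endothelial marker CDH5 was at 0. Summed epithelial markers were 62.0 to 68.4 RPKM in untreated cells and 70.3 to 76.0 at 2 h, of which 3 of 5, EPCAM, CDH1 and KRT19, were at or near 0. KRT18 (14.1 to 69.4 RPKM over all libraries) and KRT8 (1.80 to 6.64) made up nearly all of these sums. Summed pigment epithelial markers were 28.4 to 29.3 RPKM in untreated cells and 25.5 to 29.2 at 2 h. Summed mesenchymal markers, mostly VIM, were 815 to 818 RPKM in untreated cells and 731 to 739 at 2 h. The part of the markers in the results below was not tested.

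The sequences just upstream of 4 members are shown because these are the members that passed the threshold of the model at 2 h. Each runs 5′ to 3′ on the strand of the gene, from 250 to 21 bases before a RefSeq transcription start (GRCh38.p14 table), and was located by exact match in GRCh37. Capitals mark GGCGCC and GGAGCC (or GGCTCC, its reverse complement), GC-rich elements known to bind BMP-regulated SMADs, and TATAAA, the TATA box. The windows lie at chr20:30192842-30193071 (plus strand) for ID1, chr1:23886013-23886242 (minus) for ID3, chr10:28966200-28966429 (plus) for BAMBI and chr14:54421789-54422018 (minus) for BMP4. The BMP4 window belongs to the most upstream of 3 RefSeq starts, and in the GRCh37 annotation it lies in an intron of BMP4 and in an exon of an antisense long non-coding RNA. In the same annotation the 250 bases upstream of ID1 overlap an exon of a gene on the other strand.
ID1: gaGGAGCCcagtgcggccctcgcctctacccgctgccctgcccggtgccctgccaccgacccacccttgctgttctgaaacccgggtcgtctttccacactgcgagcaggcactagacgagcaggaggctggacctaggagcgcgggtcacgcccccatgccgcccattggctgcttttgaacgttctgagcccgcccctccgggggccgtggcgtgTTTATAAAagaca
ID3: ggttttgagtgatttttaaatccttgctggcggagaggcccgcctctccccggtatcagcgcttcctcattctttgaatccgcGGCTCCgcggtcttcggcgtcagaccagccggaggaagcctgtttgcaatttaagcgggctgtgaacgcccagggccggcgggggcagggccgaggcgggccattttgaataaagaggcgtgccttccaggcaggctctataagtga
BAMBI: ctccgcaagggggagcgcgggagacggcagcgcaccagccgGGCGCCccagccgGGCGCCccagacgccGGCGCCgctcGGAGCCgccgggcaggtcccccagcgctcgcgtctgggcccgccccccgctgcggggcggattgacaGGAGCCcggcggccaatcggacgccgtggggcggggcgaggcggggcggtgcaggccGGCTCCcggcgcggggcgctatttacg
BMP4: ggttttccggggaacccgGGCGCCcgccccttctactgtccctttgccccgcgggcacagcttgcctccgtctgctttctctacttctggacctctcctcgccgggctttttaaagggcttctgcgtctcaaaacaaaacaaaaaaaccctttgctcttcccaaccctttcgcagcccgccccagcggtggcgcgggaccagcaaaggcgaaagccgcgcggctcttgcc

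The ID1 window ends in a TATA box read on both strands, 33 to 26 bases before the start, and has GGAGCC at its far end. The BAMBI window holds GGCGCC 3 times and has a GC content of 81.7%, against a median of 58.0% over the 250 bases upstream of 35116 RefSeq starts. In those 250-base windows, searched on both strands, GGCGCC occurred in 16.4% of all promoters and in 3 of 12 windows of the members (BMP4, GREM1 and BAMBI, where BMP4 and GREM1 have several starts). BMP2 had no entry among these starts and so no window. GGCGCC occurred at least 2 times in 3.08% of promoters. GGAGCC was present in 30.6% of promoters and 6 of the 12 windows, and TATAAA in 10.7% and in 2, ID1 and ID4. The short SMAD-binding motif AGAC was in 77.5% of promoters and in 11 of the 12, and the cyclic AMP response element core TGACGT was in 7.10% and in none of the 12. A match describes letters in a window and not a bound site.

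After 2 h of merbarone, RNA of the ligand BMP4 was 53.7% lower than in untreated cells, and that of the targets ID1, ID3 and BAMBI was 1.87-fold, 1.62-fold and 1.87-fold higher. ID2, at a lower level, was 2.96-fold higher. The ligand and these known targets moved in opposite directions. In bulk RNA, fewer cells expressing a gene and less RNA per cell cannot be told apart. After 30 min, the treated and control values of every member with reads overlapped.

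Of the 5 members in the 2 h model (limma), 3 were called higher and 1 lower at an adjusted p under 0.05, where 5.98% of the 6620 genes tested were called higher and 7.1% lower. Because values of this contrast had been used to choose the members, nothing is read from that count or from any other call of a member. Without the level minimum, BMP4 was the only member called of 9 tested, at a limma adjusted p of 0.049. In that fit 53 of 16810 genes were called, 5 of them lower. Among the 9 members with reads, 6 had both treated libraries above both untreated ones and 2 had both below. Of the 13440 genes averaging 10 reads or more, 28.8% lay above and 29.4% below in this way.

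**Figure D1:**
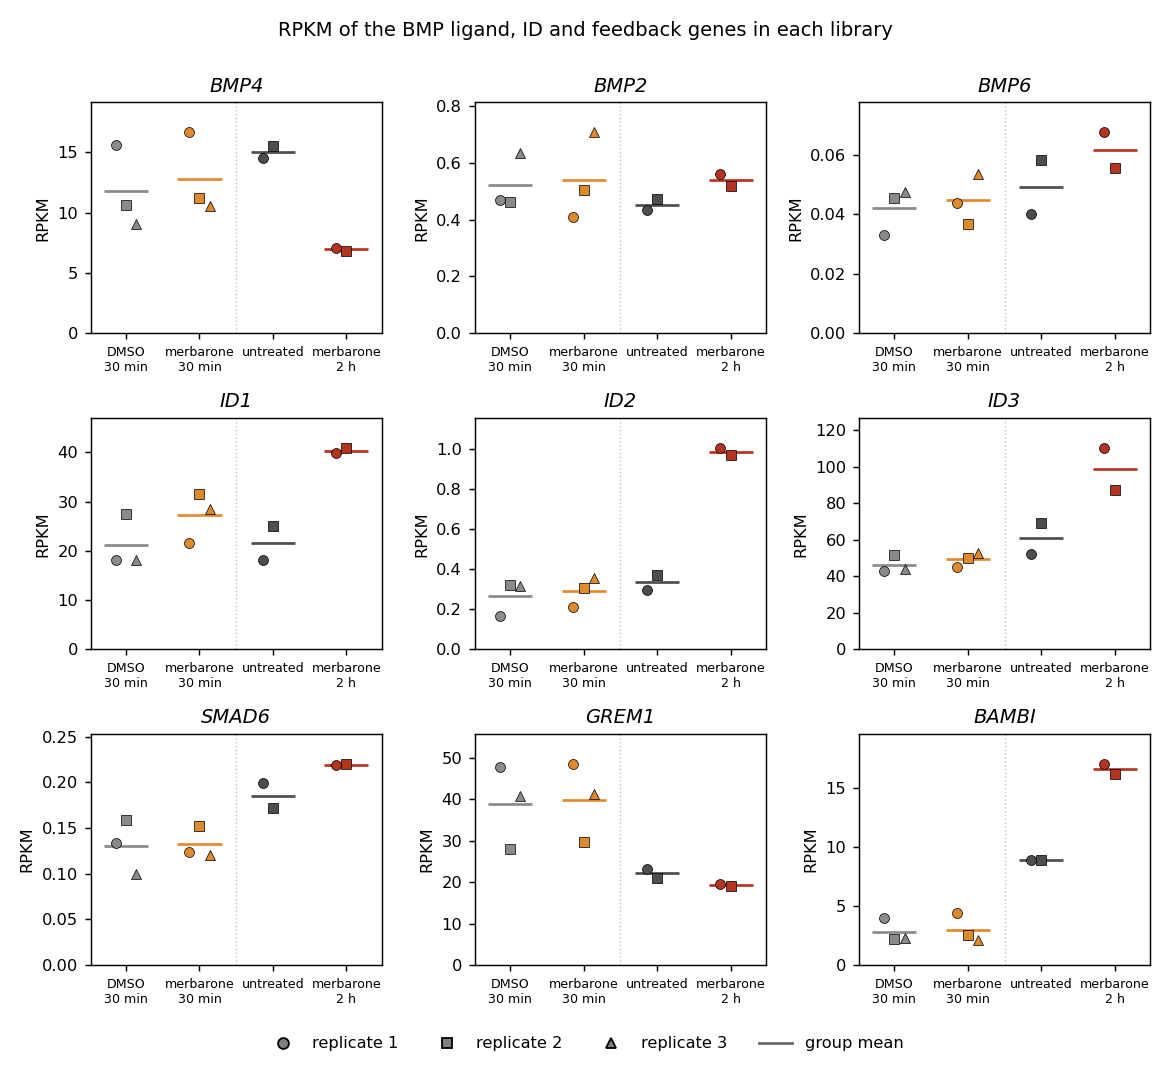
RPKM (linear axis) of the 9 members with reads in each of the 10 libraries, by group; symbols mark replicate numbers, bars mark group means and a dotted line parts the experiments. BMP4 falls from 14.6 and 15.5 RPKM to 7.11 and 6.80 at 2 h while ID1, ID2, ID3 and BAMBI lie higher, and the 30 min groups overlap.

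Of the 3 ligands BMP2, BMP4 and BMP6, BMP4 had the most reads. The gene spans 9026 bp on the minus strand of chromosome 14 (chr14:54416454-54425479; all gene positions are GRCh37) and overlaps a long non-coding RNA on the other strand. Its level was 14.6 and 15.5 RPKM in the untreated libraries (1751 and 1674 reads) and 7.11 and 6.80 in the 2 h libraries (879 and 801 reads). Both treated values lay below both controls, with little spread within either group. The means were 15.0 ± 0.672 and 6.96 ± 0.217 RPKM (SD, n = 2), and the log2 fold change was -1.01 ± 0.09 (SE). All such values are differences of log2(RPKM + 1) unless stated. Over the 17 alternative settings the log2 fold change ran from -1.11 to -0.92.

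At 30 min, BMP4 stood at 15.6, 10.6 and 9.08 RPKM in DMSO replicates 1 to 3 and at 16.7, 11.2 and 10.6 RPKM in merbarone replicates 1 to 3. Replicate 1 was the highest of each group, and each merbarone library was above the DMSO library of the same number, by 0.07 to 0.20 on the log2 scale. The groups overlapped, at a log2 fold change of 0.12 ± 0.23, and the value without single libraries ran from -0.07 to 0.33.

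The other ligands were scarce. BMP2 (chr20:6748333-6760893), a close relative of BMP4, had 71 to 312 reads per library and was at 0.434 and 0.470 RPKM in untreated cells and 0.561 and 0.516 at 2 h, without overlap. The means differed 1.19-fold, and on recovered reads (limma voom) the log2 fold change was 0.25 ± 0.21. At 30 min its means were 0.521 ± 0.096 and 0.539 ± 0.151 RPKM (SD, n = 3), with overlap. BMP6 (chr6:7726332-7881961), better known as a ligand that controls iron regulation in liver, was at 0.0330 to 0.0675 RPKM in the 10 libraries, and its groups overlapped at both times. BMP6 overlaps TXNDC5 and BLOC1S5-TXNDC5 on the opposite strand, and the strand setting of the read counting is not given in the sources used here, so its value is uncertain.

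ID1 and ID3 were the abundant ID genes. ID1 is a gene of 1233 bp (chr20:30193086-30194318, plus strand), and 1.00% of the 6496 tested genes with a span were shorter. It was at 18.1 and 25.2 RPKM in untreated cells and at 39.9 and 40.9 RPKM at 2 h. The treated libraries agreed closely and lay well above both controls, which differed from each other by 1.39-fold. The means were 21.6 ± 5.01 and 40.4 ± 0.666 RPKM (SD, n = 2), and the log2 fold change came to 0.89 ± 0.15.

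ID3 (chr1:23884417-23885992, minus strand, 1576 bp), whose RPKM rested on a length of 1878 bp, so that the counted region may differ from this position, had 52.4 and 69.2 RPKM in untreated cells and 110.1 and 87.4 RPKM at 2 h. Again both treated values were above both controls, but each group was more spread than for BMP4. The means were 60.8 ± 11.9 and 98.7 ± 16.0 RPKM (SD, n = 2), and the effect on the log2 scale was 0.69 ± 0.16. Without replicate 1 of the 2 h merbarone group, ID3 was no longer past the threshold, at a log2 fold change of 0.53.

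ID2 (chr2:8818975-8824591, plus strand) lay under the level minimum, with 22 and 25 reads in untreated cells and 77 and 71 at 2 h, or 0.294 and 0.373 against 1.00 and 0.970 RPKM. The treated values were all above the controls. Its log2 fold change was 0.58 on log2(RPKM + 1), which shrinks changes of low genes, and 1.56 ± 0.28 by voom on reads. With voom, 4 members were called higher (ID1, ID2, ID3 and BAMBI) and 1 lower (BMP4) of 9 tested, where 7.94% of 13440 genes were called higher and 6.09% lower. As with limma, the members were chosen on this contrast and nothing is read from the count. ID2 overlaps the antisense RNA ID2-AS1. ID4 (chr6:19837601-19842428) had 0 reads in all 10 libraries, which allows up to 0.0203 to 0.0648 exon-scaled reads (reads per kilobase of exon and per 1e6 reads) depending on depth, at 3 reads per library and for counting error only.

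At 30 min, ID1 was at 18.1, 27.5 and 18.1 RPKM in DMSO and 21.7, 31.6 and 28.6 RPKM in merbarone, for replicates 1 to 3. Replicate 2 was the highest in each group, and in all 3 same-numbered pairs the merbarone library was higher, by 0.19 to 0.63 on the log2 scale. The groups overlapped, the means were 21.2 ± 5.42 and 27.3 ± 5.08 RPKM (SD, n = 3), and the log2 fold change was 0.36 ± 0.20. ID3 had 42.9, 51.4 and 44.2 RPKM in DMSO and 45.3, 50.1 and 52.7 in merbarone, a log2 fold change of 0.10 ± 0.10. ID2 had means of 0.268 and 0.291 RPKM. None of the 5 members tested at 30 min was called in limma, and 0 had an unadjusted p under 0.05, where 0.0154% of 6500 genes (1 gene) were called. With the replicate number as a block, 0 members and 0.123% of genes (8) were called, and BMP4 and ID1 had an unadjusted p under 0.05. Limma voom on reads called 0 of 9 members, and 0 had an unadjusted p under 0.05. Of the 9 members with reads, 0 had separate groups, against 2.4% of 14012 genes.

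**Figure D2:**
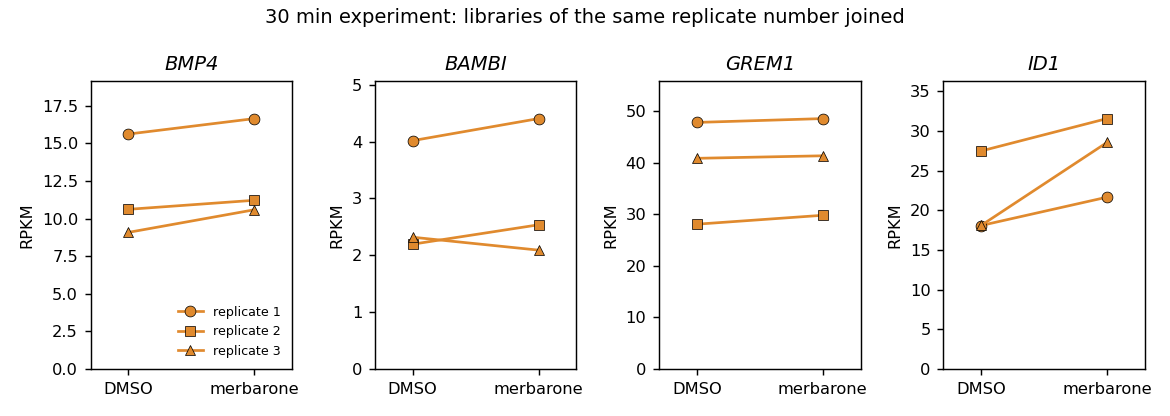
RPKM (linear axes) of BMP4, BAMBI, GREM1 and ID1 in DMSO and merbarone libraries of the 30 min experiment, with libraries of the same replicate number joined. Lines start far apart and, for BMP4 and GREM1, run nearly level: BMP4 begins at 15.6, 10.6 and 9.08 RPKM and ends at 16.7, 11.2 and 10.6.

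The inhibitory genes did not share a direction. BAMBI (chr10:28966439-28971861, plus strand), a membrane protein like a type I receptor but without the kinase domain, was at 8.89 and 8.87 RPKM in untreated cells and at 17.0 and 16.2 RPKM at 2 h. The controls were almost equal, and both treated libraries were far above them. The means were 8.88 ± 0.0107 and 16.6 ± 0.578 RPKM (SD, n = 2), and BAMBI gained 0.83 ± 0.10 on the log2 scale. At 30 min BAMBI was at 4.02, 2.19 and 2.32 RPKM in DMSO and 4.40, 2.54 and 2.09 in merbarone. Replicate 1 stood above the rest in both groups, and the log2 fold change was 0.05 ± 0.26.

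GREM1 (chr15:33010205-33037307, plus strand, overlapped by GREM1-AS1), the secreted antagonist, had the most reads of all members, 4184 to 27282 per library. The length behind its RPKM was 16703 bp against an annotated span of 27103 bp, so the counted region may differ from these positions. It was at 23.3 and 21.0 RPKM in untreated cells and 19.6 and 19.2 at 2 h. The treated values lay below the controls by a small margin. The means were 22.1 ± 1.67 and 19.4 ± 0.304 RPKM (SD, n = 2), and the log2 fold change of -0.18 ± 0.11 did not pass the threshold. At 30 min, GREM1 stood at 47.8, 28.1 and 40.8 RPKM in DMSO and at 48.5, 29.8 and 41.3 in merbarone. Replicate 2 was the lowest in each group, at a log2 fold change of 0.04 ± 0.24.

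SMAD6 (chr15:66994574-67075187, plus strand) had 164 to 456 reads per library over a span of 80614 bp. It was at 0.199 and 0.172 RPKM in untreated cells and 0.219 and 0.220 at 2 h, which do not overlap and differ 1.18-fold in the mean. On reads, voom gave a log2 fold change of 0.24 ± 0.16, and SMAD6 was not called. At 30 min its means were 0.131 ± 0.029 and 0.132 ± 0.018 RPKM (SD, n = 3), with overlap.

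**Figure D3:**
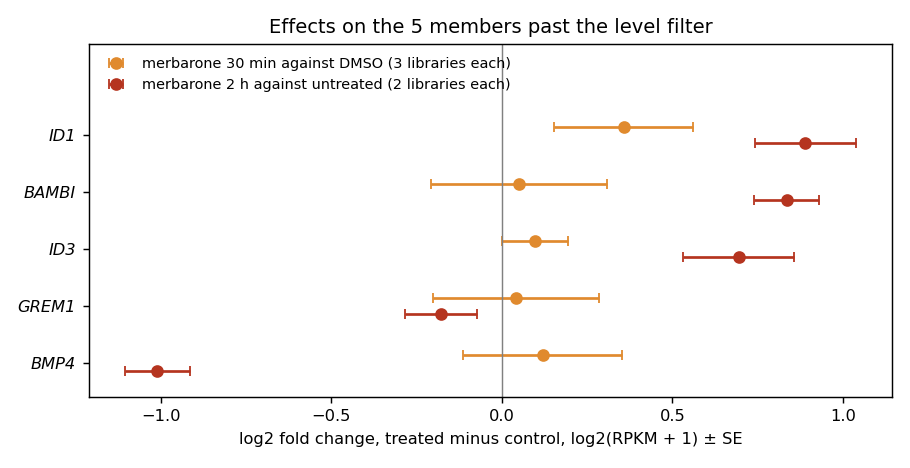
Log2 fold change ± SE on log2(RPKM + 1), treated minus control, of the 5 members in the model, for 30 min (3 libraries a group) and 2 h (2 libraries a group). The model did not pair libraries by replicate number. At 2 h BMP4 lies at -1.01 and ID1, BAMBI and ID3 between 0.69 and 0.89, while at 30 min ID1 has the highest value, 0.36 ± 0.20.

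The 2 effects were also compared with each other, although in that contrast time, vehicle and experiment cannot be told apart. The effect at 2 h minus that at 30 min was -1.13 ± 0.31 for BMP4, 0.78 for BAMBI, 0.60 for ID3, 0.53 for ID1 and -0.22 for GREM1. None of these passed the threshold in limma, where 1.63% of 6558 genes did. With the replicate number within each experiment as a block, BMP4 and BAMBI passed it, where 19.1% of genes did. The members were chosen with both effects known, so nothing is read from either count.

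The control libraries of the experiments differed for some members before any drug. Untreated cells had 3.12 times the BAMBI of DMSO cells, 1.42 times the SMAD6 and 1.32 times the ID3, without overlap. GREM1 was 1.76 times higher in DMSO cells, also without overlap. BMP4 was 1.28 times higher and ID1 1.02 times higher in untreated cells, with overlapping values. Vehicle and experiment cannot be told apart in these values. Summed pigment epithelial markers were 9.20 to 11.7 RPKM in DMSO cells and 28.4 to 29.3 in untreated cells, and summed epithelial markers were 16.3 to 21.4 and 62.0 to 68.4. Over all libraries BEST1 ran from 2.10 to 20.03 RPKM, but PMEL only from 3.68 to 5.07 and OTX2 from 2.35 to 4.61. KRT18 ran from 14.1 to 69.4 RPKM and KRT8 from 1.80 to 6.64. Differences of these sums thus follow mainly BEST1 and KRT18 and not the whole lists. The part of these marker differences in the values of the members was not tested. Within the DMSO group alone the highest library exceeded the lowest by 1.83 times for BAMBI, 1.72 for BMP4, 1.70 for GREM1 and 1.52 for ID1.

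To compare levels between genes, recovered reads were divided by summed exon length, because the deposited RPKM of most genes uses the whole gene span. If reads in introns were counted, this raises genes with long introns. Examples are BMP6 (span 155630 bp, exons 3784 bp) and SMAD6 (80614 and 8556 bp), so their ranks are uncertain. In untreated cells ID3 was the highest member, at 76.4 ± 14.9 exon-scaled reads (SD, n = 2) for an annotated exon length of 1496 bp, shorter than the length behind its RPKM. BMP4 followed at 43.8 ± 1.96, then GREM1 at 25.0 ± 1.89, BAMBI at 23.2 ± 0.028 and ID1 at 21.6 ± 5.01. The range of ID1 took in BAMBI and overlapped that of GREM1. BMP6 (2.02), SMAD6 (1.73), BMP2 (1.61), ID2 (0.845) and ID4 (0) made up the low end, and the ranges of BMP6, SMAD6 and BMP2 overlapped. In DMSO cells the order was ID3 (57.9 ± 5.73, SD, n = 3), GREM1 (43.9 ± 11.3), BMP4 (34.3 ± 9.97) and ID1 (21.2 ± 5.43), each overlapping the next, followed by BAMBI (7.44 ± 2.67), BMP2, BMP6, SMAD6, ID2 and ID4.

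Likeness to BMP4 was measured as Pearson's r over the 10 libraries, on log2(RPKM + 1) minus the mean of the controls of the same experiment. Libraries of a group share treatment, and depth differs between the experiments, so r is a description. It does not measure the size of a change. Of 6162 genes ranked, the 5 most like BMP4 were SNU13 (r = 0.979), TRUB2 (0.979), ABHD14A-ACY1 (0.978), RGS4 (0.978) and ACY1 (0.977). ABHD14A-ACY1 is a read-through gene that shares sequence with ACY1. RGS4, a regulator of G protein signalling, had a log2 fold change of -1.50 at 2 h, beside -0.31 for SNU13, -0.13 for ACY1 and -0.10 for TRUB2. The genes most like ID1 were BCL3 (0.940), FBXL12 (0.939), INAFM1 (0.938), ARHGEF2 (0.924) and ZFP36L1 (0.924). ZFP36L1, which binds AU-rich mRNA, had a log2 fold change of 1.10 at 2 h and 0.44 at 30 min. Among members, r with BMP4 was -0.95 for ID2, -0.81 for ID3, -0.72 for ID1, -0.63 for BMP2 and -0.59 for BMP6. For SMAD6 it was -0.49, for BAMBI -0.42 and for GREM1 0.53. ID1 had r = 0.89 with ID3, 0.84 with ID2, 0.66 with SMAD6 and 0.60 with BMP6. Its r was 0.41 with BAMBI, 0.37 with BMP2 and -0.66 with GREM1. The members were chosen with values of both contrasts known, so nothing is read from these r values.

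The other BMP pathway genes were taken from a list of 71 genes in 7 roles, of which 70 were in the tables and 21 passed the level minimum at 2 h. The list was drawn up with earlier results of these data known, so counts over it are a description. In limma 6 of the 21 were called higher and 0 lower, beside the shares of 5.98% and 7.1% over all genes given above. Of the 8 with a negative change, RGMB, FSTL1 and TCF3 had an unadjusted p under 0.05. So did SMAD5, SKI, CRIM1 and ATOH8, which had a positive change and were not called. Voom on reads, which keeps genes with few reads per kilobase, called 11 of 44 higher and 3 lower, beside 7.94% and 6.09% of all 13440 genes. The 5 largest rises were HES1 (2.78 ± 0.22), the ligand GDF5 (1.06 ± 0.35, from 14 to 41 reads per library, overlapping GDF5-AS1), SMAD7 (1.03 ± 0.13), SNAI2 (0.93 ± 0.15) and GDF6 (0.70 ± 0.11). The 3 falls were those of ACVR2B and RGMB, a receptor and a co-receptor, and TNFRSF11B, a decoy receptor for RANKL, at -1.34 ± 0.25, -0.39 ± 0.12 and -0.69 ± 0.21. Over the 21 genes in limma the median log2 fold change was 0.15, against -0.05 over all genes tested, with 13 above 0 and 8 below.

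Among ligands and receptors, GDF6, a ligand of the BMP family and the one with the highest mean, rose from 4.63 ± 0.342 to 7.50 ± 0.211 RPKM (SD, n = 2), by 0.60 ± 0.09 on the log2 scale (limma adjusted p = 0.00435). It was not past the threshold when all 10 libraries were fitted together (adjusted p = 0.326). RGMB, a co-receptor, had the highest RPKM of the receptor list, with a log2 fold change of -0.33 ± 0.12 (limma adjusted p = 0.102). The remaining 9 receptor genes did not pass the level minimum: BMPR2, the type II BMP receptor, was at 0.514 and 0.630 RPKM in the means of untreated and 2 h cells. BMP5, BMP7, BMP10 and BMP15 had no reads in the 2 h experiment.

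Of the SMADs and their regulators, SMAD7, the other inhibitory SMAD, rose from 1.42 ± 0.199 to 2.88 ± 0.237 RPKM (SD, n = 2), which is 0.68 ± 0.09 on the log2 scale (limma adjusted p = 0.00167). SKIL, a corepressor of SMADs, rose from 1.81 ± 0.129 to 2.77 ± 0.401 RPKM (SD, n = 2), or 0.42 ± 0.09 (limma adjusted p = 0.0207), and was lost without replicate 1 of the 2 h merbarone group (0.216). Among extracellular antagonists, FSTL3 rose from 14.4 ± 2.86 to 21.9 ± 1.24 RPKM (SD, n = 2), 0.59 ± 0.14 (limma adjusted p = 0.0248), and was lost without replicate 2 of that group (0.0729) or with all 10 libraries fitted together (0.228). FSTL1, with the highest mean of that list, had a log2 fold change of -0.26 ± 0.10 (limma adjusted p = 0.129).

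Among target genes, HES1, a transcriptional repressor also driven by Notch, showed the widest move of the 21, from 1.37 ± 0.0246 to 9.59 ± 1.32 RPKM (SD, n = 2; 42 to 373 reads). That is a log2 fold change of 2.15 ± 0.10 (limma adjusted p = 7.48e-06), and HES1 was called under all 17 alternatives. Without the level minimum, HES1 was the only one called of 64 other pathway genes tested, where 53 of 16810 genes were called. SNAI2, a repressor of epithelial genes, rose from 3.11 ± 0.218 to 5.94 ± 0.140 RPKM (SD, n = 2), 0.76 ± 0.09 (limma adjusted p = 0.000836), and it overlaps an antisense RNA. The protease FURIN had a log2 fold change of -0.09 ± 0.12 (limma adjusted p = 0.648) and the E protein TCF3, a binding partner of ID proteins, -0.24 ± 0.09 (adjusted p = 0.118). At 30 min 0 of 19 tested pathway genes were called in limma, 0 had an unadjusted p under 0.05, and voom called 0 of 47.

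**Figure D4:**
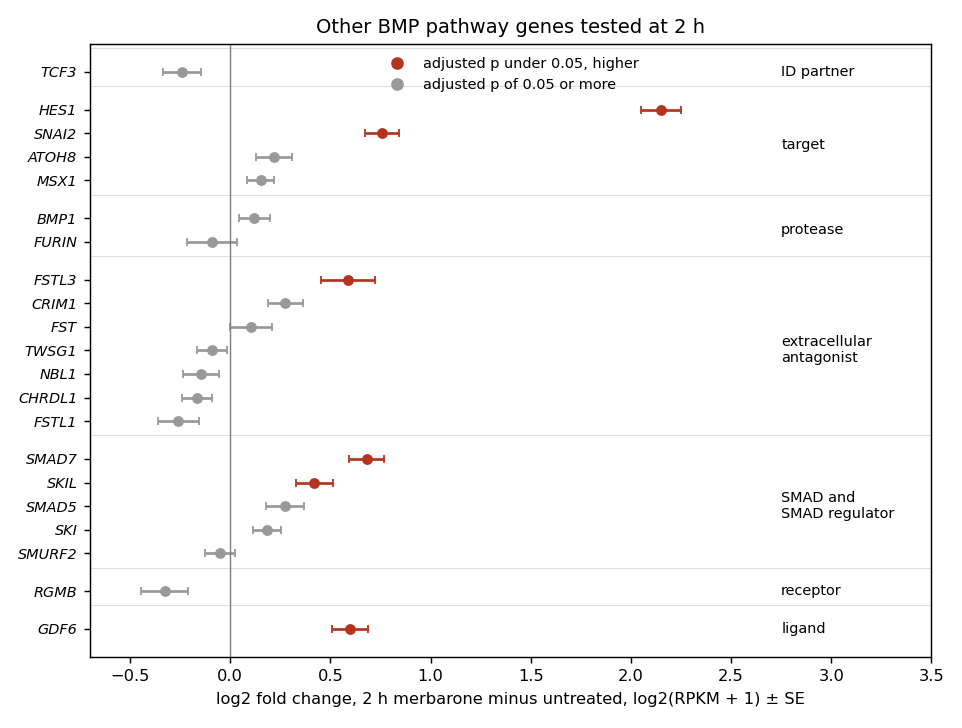
Log2 fold change ± SE on log2(RPKM + 1), 2 h merbarone minus untreated, of the 21 other pathway genes in the model, grouped by role. The 6 genes called higher, from SKIL at 0.42 to HES1 at 2.15, fall in 4 of the 7 roles, and no gene was called lower.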

How the data were processed

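RNA-seq of polyadenylated RNA was made with the TruSeq Stranded mRNA kit from 150 ng of total RNA, per the labels' protocols. The authors deposited 1 table per library of RPKM per Ensembl gene, per the file headers, not log-transformed. The submitters' processing notes name Bowtie 1.2.0, DESeq2, edgeR, deepTools 2.4.1 and the builds hg19 and GRCh37, without roles; the read counter, annotation and strand setting are not given in the sources used here. Of 17234 genes, 74.9% had an RPKM length within 1% of the whole gene span and 1.60% within 1% of the summed exons. Whole reads were recovered for 17680 of 17680 genes above 0 (100% of values whole, relative tolerance 1e-11). Symbols were matched for 19637 genes and 690 kept identifiers only.

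The model was limma 3.58.1 (R 4.3.3), lmFit and eBayes with trend, on log2(RPKM + 1) of genes averaging 1 RPKM or more, two-sided, within each experiment, with Benjamini-Hochberg adjustment over all genes tested and a threshold of 0.05. The difference between the effects was a contrast over all 10 libraries. Limma voom on recovered reads (mean of at least 10 reads) called 1886 genes at 2 h. The main limma fits were also run on simulated reads, drawn independently for each library and without an effect of replicate number. That run does not show how the model performs where libraries of the same number are alike. Tables and plots used pandas 2.3.3, NumPy 2.4.6, matplotlib 3.10.9 and SciPy 1.17.1 under Python 3.11.15. The members and the lists of pathway genes and markers were chosen with earlier results of these data known. Named in the text are all members, every pathway gene called (the 5 largest rises and falls if over 10), the highest of each role, and the 5 genes most like BMP4 and ID1.

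Replicate numbers come from the labels. In the 30 min experiment, deviations from the group means correlated between same-numbered libraries at r = 0.925, 0.646 and 0.605. The numbers were therefore taken to pair the samples, but only in the replicate block alternatives. The main model left the pairing out, so its 30 min SEs include the spread between replicate numbers. With the block, 30 min log2 fold changes (± SE) were 0.12 ± 0.04 for BMP4, 0.36 ± 0.09 for ID1 and 0.10 ± 0.06 for ID3. Those of GREM1 and BAMBI were 0.04 ± 0.04 and 0.05 ± 0.05, and no member was called. Alternatives were another pseudocount, other filters, scalings, fits, GC correction, voom and leaving out each library; voom with a mean of at least 1 RPKM was added after seeing the data.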

Additional observations from a re-analysis of the deposited data

Results flagged for a closer look

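For 3 pathway genes the effect at 2 h differed from that at 30 min in limma's contrast of the effects over all 10 libraries, in which time, vehicle and experiment cannot be told apart. For HES1, the effect at 2 h minus that at 30 min was 2.24 on the log2 scale (limma adjusted p = 0.00387), from 2.15 ± 0.10 at 2 h and -0.09 ± 0.20 at 30 min, and it passed the threshold under 21 of 21 alternatives. SNAI2 differed by 0.77 (limma adjusted p = 0.0192) and passed under 15 of 21 alternatives, with adjusted p-values up to 0.125. SMAD7 differed by 0.63 (limma adjusted p = 0.0353) and passed under 7 of 21, with adjusted p-values from 0.00123 to 0.188.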

How the results depend on the processing

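At 2 h, BMP4, ID1, ID3 and BAMBI kept their direction under all 17 alternatives. These alternatives refit values that were known when the members were chosen, so they describe the fits and add no support. With no level filter limma's adjusted p was 0.131 for ID1, 0.192 for ID3 and 0.0502 for BAMBI, and BMP4 kept its call at 0.049. With all 10 libraries in 1 fit BAMBI had 0.0799. At 30 min, where none was called, the log2 fold changes of BMP4, GREM1 and BAMBI changed sign without some libraries, reaching -0.07, -0.17 and -0.19. Those fits were unpaired and kept the same-numbered library of the other group. Within same-numbered pairs merbarone was higher in all 3 for BMP4 (0.07 to 0.20) and GREM1 (0.02 to 0.08). For BAMBI it was higher in 2 of 3 (-0.10 to 0.15). At 2 h, 866 genes were called: 53 with no filter, 397 at a mean of at least 5 RPKM, 1886 by voom, 1909 with GC dependence removed, and 328 (without merbarone replicate 1) to 2464 (without untreated replicate 1) without single libraries. Higher calls were 45.7% of the main calls, 62.3% with median scaling and 53.8% with quantile normalization, so their balance with lower calls turned. At 30 min, 1 gene was called, 0 with no filter, 2 at 5 RPKM, with quantile normalization or with all 10 libraries, and 0 to 2 without single libraries. The difference between the effects had 107 calls: 361 with no filter, 36 at 5 RPKM, 66 by voom, 60 by voom at 1 RPKM, 170.0 with GC dependence removed, and 38 to 86 without single libraries. Of the other pathway genes, 6 were called at 2 h: 1 with no filter, 3 at 5 RPKM, 14 by voom, 14 with GC dependence removed, and 5 to 11 without single libraries; at 30 min 0 were called under any alternative. The causes were not tested.

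A replicate block gave 2129 calls at 2 h (voom 3438, with GC removal 2039), 8 at 30 min (13 and 8), 1255 for the difference (2094 and 1840.0) and 12 pathway genes at 2 h (21 and 12); the members called at 2 h and at 30 min did not change in limma, while BMP4 and BAMBI then passed for the difference. At 2 h same-numbered libraries correlated at 0.30. With 2 libraries a group both pairs must give the same value, so it cannot show whether those libraries were paired.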
